A study of Homo sapiens with 11 samples.

Results

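P-TEFb and the 7SK complex were followed through 7 genes, CDK9, CCNT1, CCNT2, HEXIM1, HEXIM2, LARP7 and MEPCE, in human T-REx-293 cells depleted of Tat-SF1. The members were chosen by name, and every probe set (a small group of array probes lying within 1 exon or part of one) that carried 1 of these symbols and no other was taken. This gave 111 of the 355799 probe sets with 1 symbol on the array, namely 14 for CDK9, 13 for CCNT1, 26 for CCNT2, 6 for HEXIM1, 8 for HEXIM2, 26 for LARP7 and 18 for MEPCE. T-REx-293 cells derive from the embryonic kidney line HEK293 and let tetracycline switch on an introduced construct, and all cells in the study stably carried a plasmid for green fluorescent protein (GFP). After 2.5 µg/mL tetracycline for 72 h, the knockdown cells expressed shRNA A (3 arrays) or shRNA B (3 arrays), both directed at Tat-SF1, and the control cells expressed an shRNA against GFP (3 arrays) or an empty vector (2 arrays). The series design describes 12 biological replicates, of which the third empty vector sample failed quality control and was excluded by the submitters. Total RNA was hybridised to exon arrays, 1 per sample. In bulk RNA, a lower value in every cell and a lower value in only some of the cells cannot be told apart.

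P-TEFb is a kinase, made of CDK9 and a T-type cyclin, that phosphorylates RNA polymerase II and the factors that hold it paused near promoters, and so lets transcription pass into elongation. Much of the cell's P-TEFb is held inactive by HEXIM1 or HEXIM2 on the small nuclear RNA 7SK, whose ends are protected by MEPCE and LARP7. Tat-SF1, encoded by HTATSF1, was first described as a cofactor of the HIV-1 Tat protein, which itself acts through P-TEFb, and it also binds the U2 particle of the spliceosome.

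Gene values are medians of a gene's usable probe sets per array, on the log2 scale, and differences are log2 differences between knockdown and control means. Usable probe sets had an estimate on all 11 arrays and a mean of at least 7.91, the median of the table, near which dim probe sets crowd. This kept 99 of the 111 member probe sets (10 were dimmer and 2 lacked an estimate) and 222032 over all genes. All 7 members had the 4 usable probe sets required for a gene value, as did 14555 genes in all. The correlation between any pair of arrays lay between 0.941 and 0.962. The 3000 brightest genes had a mean of 9.256 ± 0.0447 over knockdown arrays (SD, n = 6) and 9.323 ± 0.0411 over controls (SD, n = 5) (exact two-sided permutation p = 0.0303), so that the knockdown arrays were slightly dimmer at the bright end. Of all genes, 67.1% had lower means with knockdown, with a median difference of -0.02. Of 12 measured markers of this kidney epithelial line, 6 (VIM, KRT8, INA, KRT18, NEFL and CDH2) had control means of 9.01 to 10.18, GATA3, MYB and PAX2 had 8.18 to 8.40, and NEFM, NEFH and PAX8, at 7.94 to 7.97, lay near the array medians. KRT8 had 9.49 ± 0.122 in knockdown (SD, n = 6) and 9.73 ± 0.192 in control arrays (SD, n = 5). Marker lists of fibroblast, endothelial, blood and hepatocyte cells had control medians of 7.92 to 7.94, close to the array medians of 7.902 to 7.905. The blood list rested on 3 measured genes, of which LCP1 stood above that level with 8.74 ± 0.142 in knockdown (SD, n = 6) and 8.63 ± 0.186 in control arrays (SD, n = 5).

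HTATSF1, the targeted gene, had a gene value of 8.21 ± 0.0567 with knockdown (SD, n = 6) and 8.50 ± 0.115 with control constructs (SD, n = 5), and each knockdown array lay below each control. The difference of -0.30 (SE 0.0514) passed narrowly over all genes (limma, adjusted p = 0.0486). Leaving out any array other than empty vector replicate 2 moved the adjusted p above 0.05, to between 0.0568 and 0.104, and leaving out that array gave 0.0166. Over all 22 alternative settings the difference stayed negative and ran from -0.95 to -0.24, with adjusted p-values of 0.0112 to 0.498 (limma). The size of the fall in HTATSF1 thus depends on the scale and setting used.

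None of the 7 members passed the test of knockdown against control, in a comparison that called 0.22% of all genes (32 of 14555, of which 5 rose and 27 fell; limma with Benjamini-Hochberg adjustment over all genes, adjusted p under 0.05). Adjusted p-values of the members lay between 0.298 and 0.983. At an unadjusted p under 0.05 there was 1 member, MEPCE, against 2212 genes (15.2%) of the whole set. By the exact permutation test of each gene's own values there was also 1, CCNT2, with a p of 0.00433, where 2018 genes (13.9%) had a p under 0.05. Means were lower in knockdown for MEPCE, CDK9, CCNT2 and LARP7 and higher for HEXIM1, CCNT1 and HEXIM2, and the median of the 7 differences was -0.01. On this log2 scale, the 95% intervals of the single differences reached at most -0.23 (MEPCE) and 0.24 (HEXIM1). They do not bound changes on other scales. On a background-subtracted scale the differences themselves were -0.25 for MEPCE, -0.25 for CCNT2 and 0.28 for HEXIM1.

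**Figure D1:**
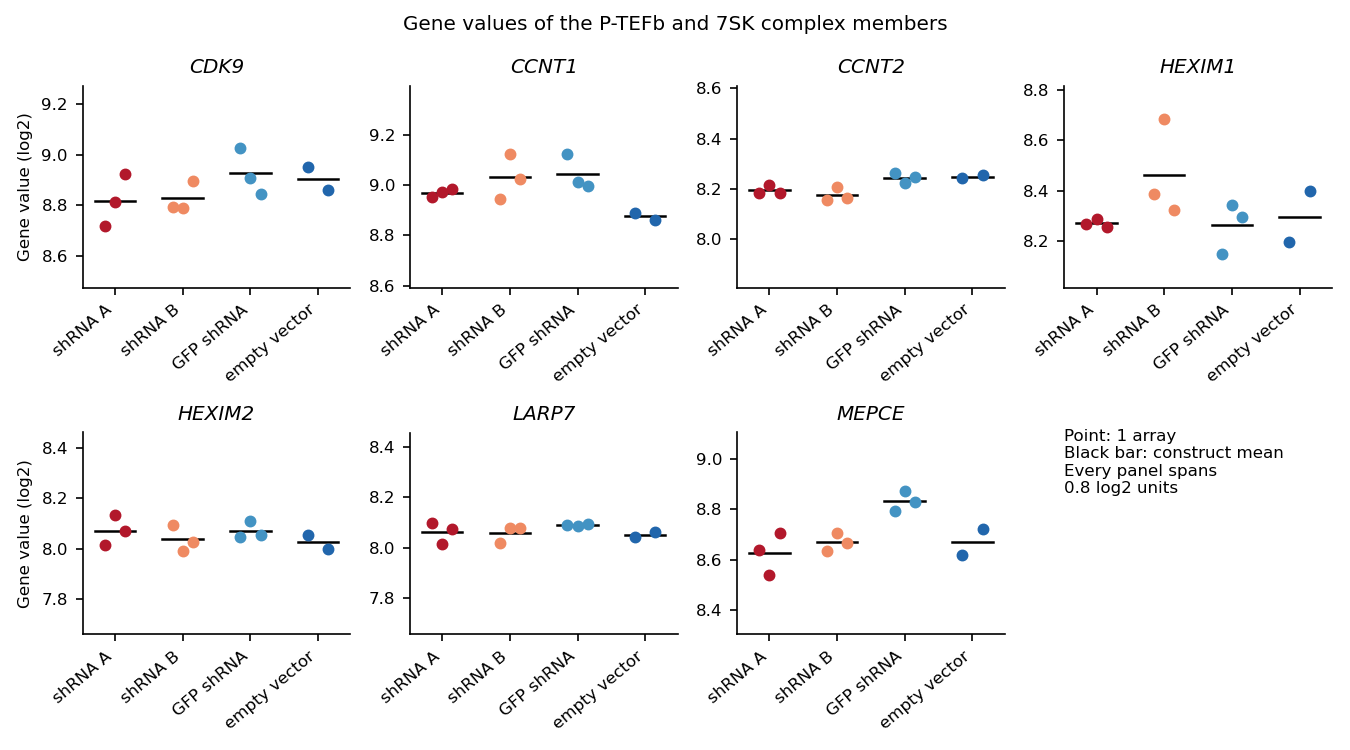
Gene value on the log2 scale (vertical axis) for each of the 11 arrays, by construct (horizontal axis), with 1 panel per member and a black bar at each construct's mean. CCNT2 is the panel in which the 6 knockdown points (8.16 to 8.22) lie below the 5 control points (8.22 to 8.26) without overlap, and HEXIM1 has 1 high point of 8.68 with shRNA B.

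CDK9, the catalytic subunit, was lower on average in the knockdown arrays, by less than the test could separate from noise. Its gene values were 8.72, 8.81 and 8.93 with shRNA A and 8.79, 8.79 and 8.90 with shRNA B, against 9.03, 8.91 and 8.84 with the GFP shRNA and 8.95 and 8.86 with the empty vector. The groups overlapped, since shRNA A replicate 3 and shRNA B replicate 3 lay among the controls. The means were 8.82 ± 0.0766 (SD, n = 6) and 8.92 ± 0.0740 (SD, n = 5), a difference of -0.10 (SE 0.0525, 95% interval -0.21 to 0.02, limma adjusted p = 0.411). Both shRNAs gave similar differences, -0.10 for shRNA A and -0.09 for shRNA B. Of its 12 usable probe sets, 11 had a lower mean in knockdown. Over the 11 arrays, the CDK9 gene value and the mean of the 3000 brightest genes had a Pearson r of 0.694, and the part of array brightness in the CDK9 difference was not tested.

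CCNT1, cyclin T1, is the partner of CDK9 that HIV-1 Tat binds, and its mean hardly differed. Its values were 8.95, 8.97 and 8.98 with shRNA A and 8.94, 9.12 and 9.02 with shRNA B, against 9.12, 9.01 and 9.00 with the GFP shRNA and 8.89 and 8.86 with the empty vector. The knockdown arrays thus lay above both empty vector arrays and, apart from shRNA B replicate 2 at 9.12, not above the highest GFP shRNA array, also at 9.12. The difference of 0.02 (SE 0.0567, 95% interval -0.10 to 0.14) had an adjusted p of 0.885 (limma), and its sign turned with several other settings, for example to -0.04 against the GFP shRNA alone.

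CCNT2, the paralogue cyclin T2, was the only member whose 6 knockdown arrays lay on 1 side of all 5 controls, a pattern shown by 327 genes, or 2.25% of those tested. It had 8.18, 8.22 and 8.18 with shRNA A and 8.16, 8.21 and 8.16 with shRNA B, against 8.26, 8.22 and 8.25 with the GFP shRNA and 8.24 and 8.25 with the empty vector. The highest knockdown array and the lowest control both round to 8.22, so the groups touch without overlapping. The means were 8.18 ± 0.0237 (SD, n = 6) and 8.25 ± 0.0146 (SD, n = 5). The difference of -0.06 (SE 0.0291, 95% interval -0.12 to 0.0002) had an exact permutation p of 0.00433 and an adjusted p over all genes of 0.330 (limma). Taken as linear signal over the array median, CCNT2 had 51.5 ± 4.82 units in knockdown arrays (SD, n = 6) and 64.3 ± 3.10 units in controls (SD, n = 5), 80.2% of the control signal. On that scale MEPCE had 82.2%, CDK9 87.3%, LARP7 91.9%, HEXIM2 101.2%, CCNT1 102.8% and HEXIM1 129.6% of it, so the order of the members is not that of the log2 differences. Of its 25 usable probe sets, 19 had a lower and 6 a higher mean in knockdown. Its r with array brightness was 0.706, and the part of brightness in its difference was not tested.

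HEXIM1, which inhibits P-TEFb when bound to 7SK RNA, had the widest spread of the members. Its values were 8.27, 8.29 and 8.26 with shRNA A and 8.39, 8.68 and 8.32 with shRNA B, against 8.15, 8.35 and 8.30 with the GFP shRNA and 8.19 and 8.40 with the empty vector. All but 1 of the 11 arrays lay between 8.15 and 8.40, and shRNA B replicate 2 stood above them at 8.68. The SD over all 11 arrays was 0.141, larger than that of 91.4% of genes. The pooled difference was 0.09 (SE 0.0710, 95% interval -0.06 to 0.24, limma adjusted p = 0.589), and without shRNA B replicate 2 it was 0.03. That array gave the highest value in 5 of the 6 HEXIM1 probe sets, among them 8.80 in probe set 3723352, where the other 10 arrays lay between 8.21 and 8.45.

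HEXIM2, the second inhibitor, lay close to the array median, and its difference was near 0. It had 8.01, 8.13 and 8.07 with shRNA A and 8.10, 7.99 and 8.03 with shRNA B, against 8.05, 8.11 and 8.05 with the GFP shRNA and 8.05 and 8.00 with the empty vector. The groups overlapped over nearly their whole range. The means of 8.05 ± 0.0538 in knockdown (SD, n = 6) and 8.05 ± 0.0395 in controls (SD, n = 5) differed by 0.002 (95% interval -0.05 to 0.06, limma adjusted p = 0.983). Only 5 of its 8 probe sets were usable and 3 were dimmer than the floor, so a change of this transcript may be compressed on this scale.

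LARP7, the La-related protein that binds the 3′ end of 7SK, also lay low on the array and had the smallest SD of the members over all 11 arrays (0.0289), although within knockdown and within control arrays CCNT2 had the smaller one. Its values were 8.10, 8.02 and 8.07 with shRNA A and 8.02, 8.08 and 8.08 with shRNA B, against 8.09, 8.08 and 8.09 with the GFP shRNA and 8.04 and 8.06 with the empty vector. The groups overlapped, and both the highest and the lowest of the 11 arrays came from shRNA A. The difference was -0.01 (SE 0.0213, 95% interval -0.06 to 0.03, limma adjusted p = 0.819). Of the LARP7 probe sets, 25 stand together in the array's numbering and 1, the usable probe set 3063966, stands far from them. Which sequence that probe set reads was not tested.

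MEPCE, the enzyme that adds a methyl cap to the 5′ end of 7SK, had the largest log2 difference of the members in size. It had 8.64, 8.54 and 8.71 with shRNA A and 8.63, 8.71 and 8.67 with shRNA B, against 8.79, 8.87 and 8.83 with the GFP shRNA and 8.62 and 8.72 with the empty vector. All 6 knockdown arrays lay below the 3 GFP shRNA arrays, while empty vector replicate 1 lay below all of them but shRNA A replicate 2, and empty vector replicate 2 lay above all of them. The means were 8.65 ± 0.0630 (SD, n = 6) and 8.77 ± 0.0990 (SD, n = 5), a difference of -0.12 (SE 0.0526, 95% interval -0.23 to -0.01). It had an unadjusted p of 0.0378, an adjusted p of 0.298 (limma) and an exact permutation p of 0.0519. Against the GFP shRNA alone the difference was -0.18, with an adjusted p of 0.195 (limma). Its r with array brightness was 0.588, and the part of brightness in its difference was not tested.

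Each shRNA on its own called none of the members either. With shRNA A the differences ran from -0.14 (MEPCE) to 0.02 (HEXIM2), with adjusted p-values of 0.464 or more, in a comparison that called 0.00687% of genes (1 of 14555). With shRNA B they ran from -0.10 (MEPCE) to 0.19 (HEXIM1), with adjusted p-values of 0.311 or more, in a comparison that called 0.0687% (10 of 14555). Each comparison had 1 member at an unadjusted p under 0.05, MEPCE with shRNA A, where 10.8% of all genes had one, and HEXIM1 with shRNA B, where 13.3% did. The 2 comparisons share their 5 control arrays. HEXIM1 was the member on which the shRNAs differed most: its difference was -0.01 with shRNA A and 0.19 with shRNA B, and the direct difference of shRNA B and shRNA A was 0.19 (SE 0.0855, limma unadjusted p = 0.0384, adjusted p = 0.998). Without shRNA B replicate 2 that direct difference was 0.08, and the difference of shRNA B from control was also 0.08. No member and none of the 14555 genes, 0%, passed between the shRNAs. HEXIM1 was the 1 member at an unadjusted p under 0.05, beside 4.38% of all genes (638). The array names of the 3 shRNA B arrays and of shRNA A replicate 3 carry a suffix that the other 7 lack, whose meaning is not given in the sources used here. With the suffix as a block, a fit that separates it from shRNA B only through shRNA A replicate 3, the shRNA B difference of HEXIM1 from control was 0.21 (limma adjusted p = 0.910). Among the arrays without the suffix, shRNA A replicates 1 and 2 against the 5 controls, the HEXIM1 difference was 0.001.

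Between the control constructs, CCNT1 and MEPCE had higher means with the GFP shRNA, although neither passed. CCNT1 averaged 9.04 ± 0.0675 (SD, n = 3) with the GFP shRNA and 8.88 ± 0.0191 (SD, n = 2) with the empty vector, a difference of 0.17 (SE 0.0775, unadjusted p = 0.0479, limma adjusted p = 0.949). MEPCE averaged 8.83 ± 0.0397 (SD, n = 3) with the GFP shRNA and 8.67 ± 0.0729 (SD, n = 2) with the empty vector, a difference of 0.16 (SE 0.0723, unadjusted p = 0.0441, limma adjusted p = 0.949). The arrays of the control constructs did not overlap for CCNT1, MEPCE and LARP7, as for 18.7% of all genes (2728). For 4 of the 7 members, CCNT1, HEXIM2, LARP7 and MEPCE, the difference between the control constructs was larger in size than that between knockdown and control. The share of all genes with this order was not counted, so it is not read as a trait of the members. The control comparison rests on fewer arrays and has the larger error, for CCNT1 an SE of 0.0775 beside 0.0567. No member passed in this comparison, which called 0.00687% of genes (1 of 14555). At an unadjusted p under 0.05 there were 2 of the 7 members, beside 4.45% of all genes (648).

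**Figure D2:**
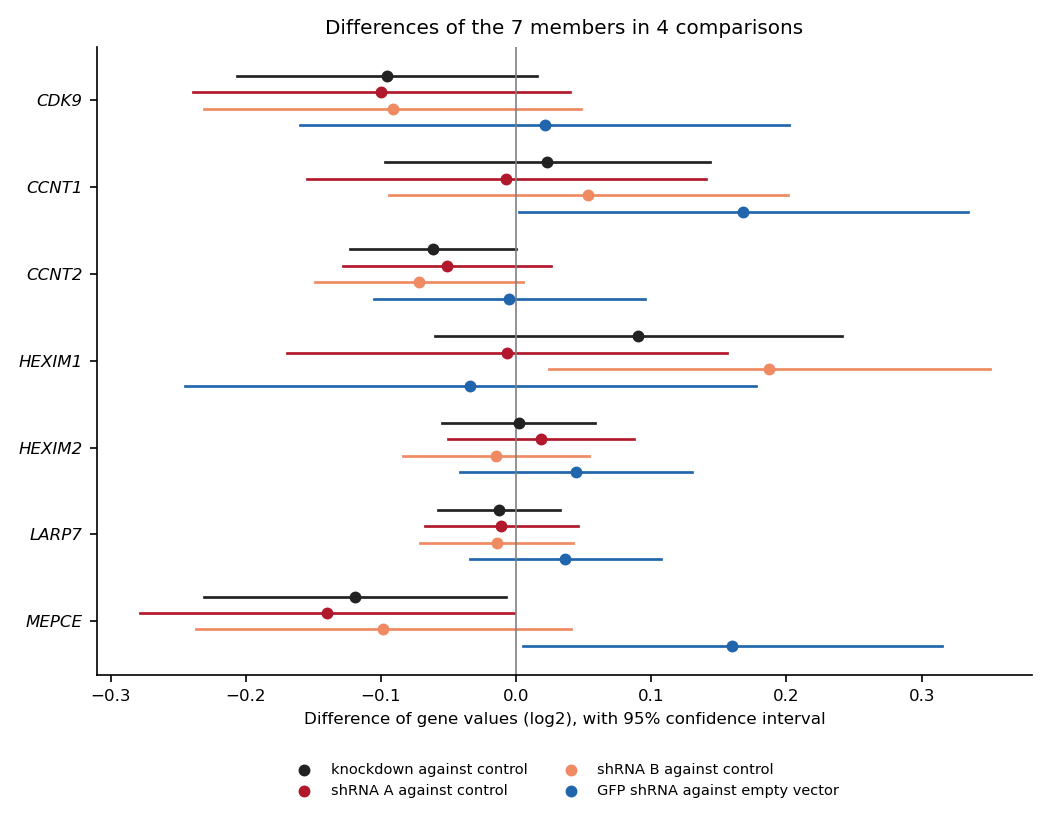
Difference of gene values on the log2 scale (horizontal axis) with its 95% confidence interval from limma, for each member (vertical axis) in 4 comparisons. The interval of the pooled difference lies wholly below 0 only for MEPCE, the shRNA B interval of HEXIM1 lies above 0, and the control constructs differ by 0.17 for CCNT1 and 0.16 for MEPCE.

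HEXIM1 and MEPCE had the largest positive and the largest negative pooled difference, and the 250 bases before their annotated starts are shown as their promoter stretches (RefSeq, GRCh38.p14, plus strand, with TATATAA in capitals). The HEXIM1 window is chr17:45148225-45148474, and the MEPCE window, the first of 3 annotated for that gene, is chr7:100428540-100428789.
HEXIM1: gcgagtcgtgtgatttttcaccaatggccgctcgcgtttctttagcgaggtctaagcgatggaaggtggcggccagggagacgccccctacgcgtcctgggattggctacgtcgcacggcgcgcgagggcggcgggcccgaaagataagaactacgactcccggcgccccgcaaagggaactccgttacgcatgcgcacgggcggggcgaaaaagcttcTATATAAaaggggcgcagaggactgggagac
MEPCE: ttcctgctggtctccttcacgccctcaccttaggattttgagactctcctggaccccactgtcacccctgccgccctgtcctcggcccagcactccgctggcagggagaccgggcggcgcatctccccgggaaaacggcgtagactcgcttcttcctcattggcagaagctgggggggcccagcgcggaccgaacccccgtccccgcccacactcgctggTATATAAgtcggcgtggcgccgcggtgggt
Each held 1 match to the letters TATATAA, starting 31 bases before the start in HEXIM1 and 30 bases before it in MEPCE. All 7 members had RefSeq windows, 12 in all, and the other 10 windows had no match. Searched on both strands, TATATAA was found in 2.42% of all 35116 windows of this length, CCAAT in 32.0% and GGGCGG in 42.6%. Of the 12 member windows, 6 (50.0%) held CCAAT and 8 (66.7%) held GGGCGG, and no match overlapped another in any member window. The letters are a description of the window, and no binding was measured here.

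Exon usage was read from the splicing index, the probe set value minus its gene's value on the same array, which shows unequal change along a gene. None of the 99 member probe sets passed for knockdown against control, a test that called 0.00315% of probe sets (7 of 222032). At an unadjusted p under 0.05 there were 13 member probe sets (13.1%), beside 11.8% of all probe sets. With shRNA A and with shRNA B alone none passed, and none of the 222032 did (0% in each). At an unadjusted p under 0.05, shRNA A had 7 of the 99 member probe sets, beside 9.46% of all probe sets (20999). With shRNA B it was 17 of the 99, beside 10.3% of all probe sets (22764). By level, without subtracting the gene value, none of the member probe sets passed and 15 of the 99 (15.2%) had an unadjusted p under 0.05, beside 12.7% of all usable probe sets. That test called 0.000429% of the probe sets it covered (3 of 699510, with dim and unlisted ones included). Of the 99 probe sets, 71 (71.7%) had a lower mean level in knockdown, beside 61.5% of all usable probe sets.

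**Figure D3:**
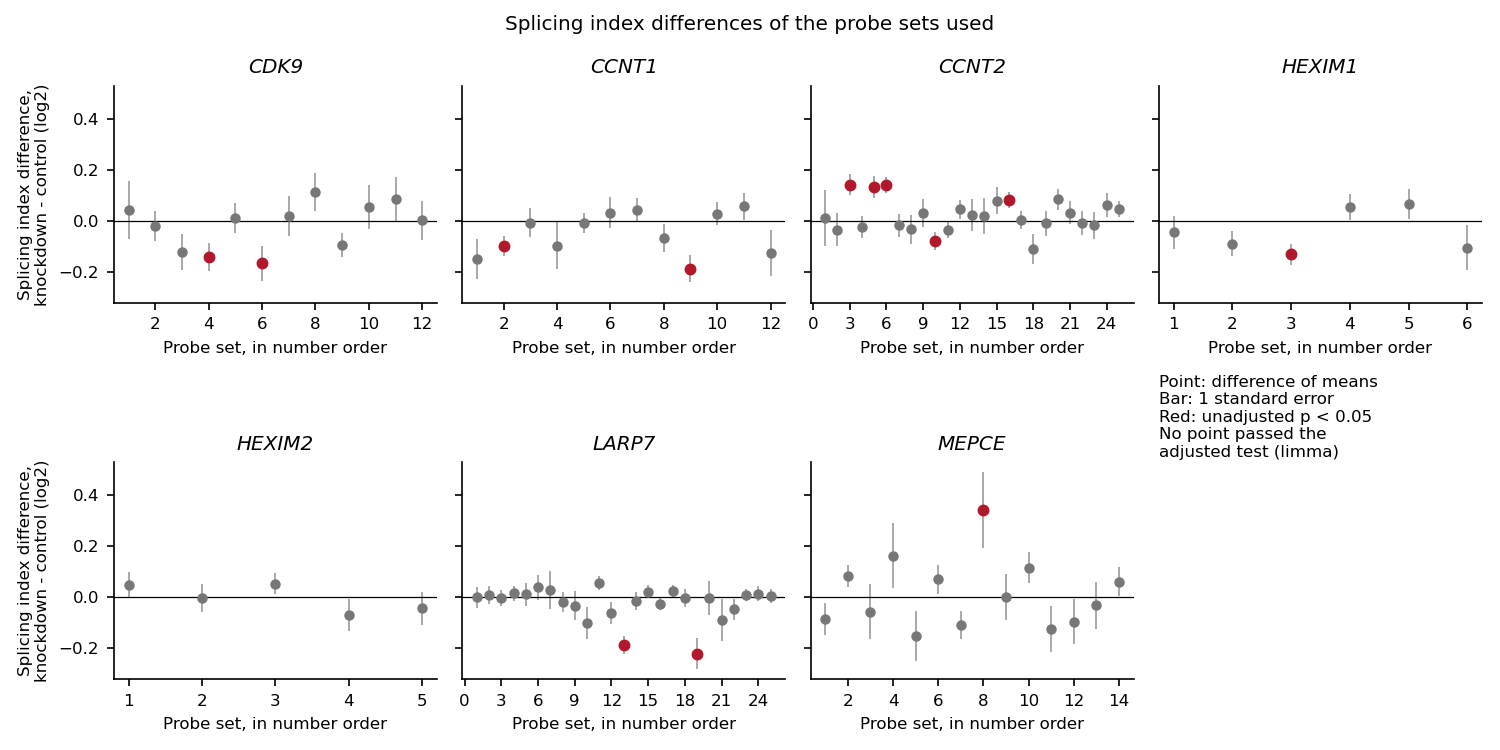
Difference of the splicing index between knockdown and control on the log2 scale (vertical axis) with 1 standard error, for the usable probe sets of each member in the order of their numbers (horizontal axis). Red points have an unadjusted p under 0.05, and none of the points passed after adjustment over all probe sets.

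LARP7 probe set 2740030 had the smallest adjusted p of the member probe sets, by splicing index and by level. Its levels were 8.10, 8.04 and 8.05 with shRNA A and 8.13, 8.08 and 8.14 with shRNA B, against 8.30, 8.28 and 8.23 with the GFP shRNA and 8.26 and 8.37 with the empty vector. All 6 knockdown arrays lay below all 5 controls, a pattern whose share by level over all probe sets was not counted. Its splicing index differed by -0.19 (SE 0.0355, limma adjusted p = 0.101), by -0.22 with shRNA A and -0.16 with shRNA B, and was the only one of the 99 whose groups did not overlap, as was so for 1.44% of all usable probe sets. This probe set was chosen after its values were seen. In probe set 2740040 the levels were 8.20, 8.26 and 8.26 with shRNA A and 8.47, 8.40 and 8.19 with shRNA B, against 8.54, 8.52 and 8.60 with the GFP shRNA and 8.54 and 8.45 with the empty vector. All knockdown arrays except shRNA B replicate 1 lay below all controls. Its splicing index differed by -0.22 (SE 0.0608, limma adjusted p = 0.197). limma's diffSplice, which compares each probe set with the rest of its gene in a model that takes the probe sets of a gene as independent, called 2972 of the 222032 probe sets and, among the members, these 2 alone, with false discovery rates of 0.0375 and 0.00440. Over the other settings the splicing index of 2740030 ran from -0.21 to -0.15 with adjusted p-values of 0.101 to 0.443, and that of 2740040 from -0.29 to -0.19 with 0.106 to 0.494 (limma). At the other end, LARP7 probe set 2740027 differed by 0.06 (limma adjusted p = 0.455). The remaining LARP7 probe sets lay between these ends, while the gene value itself differed by -0.01.

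**Figure D4:**
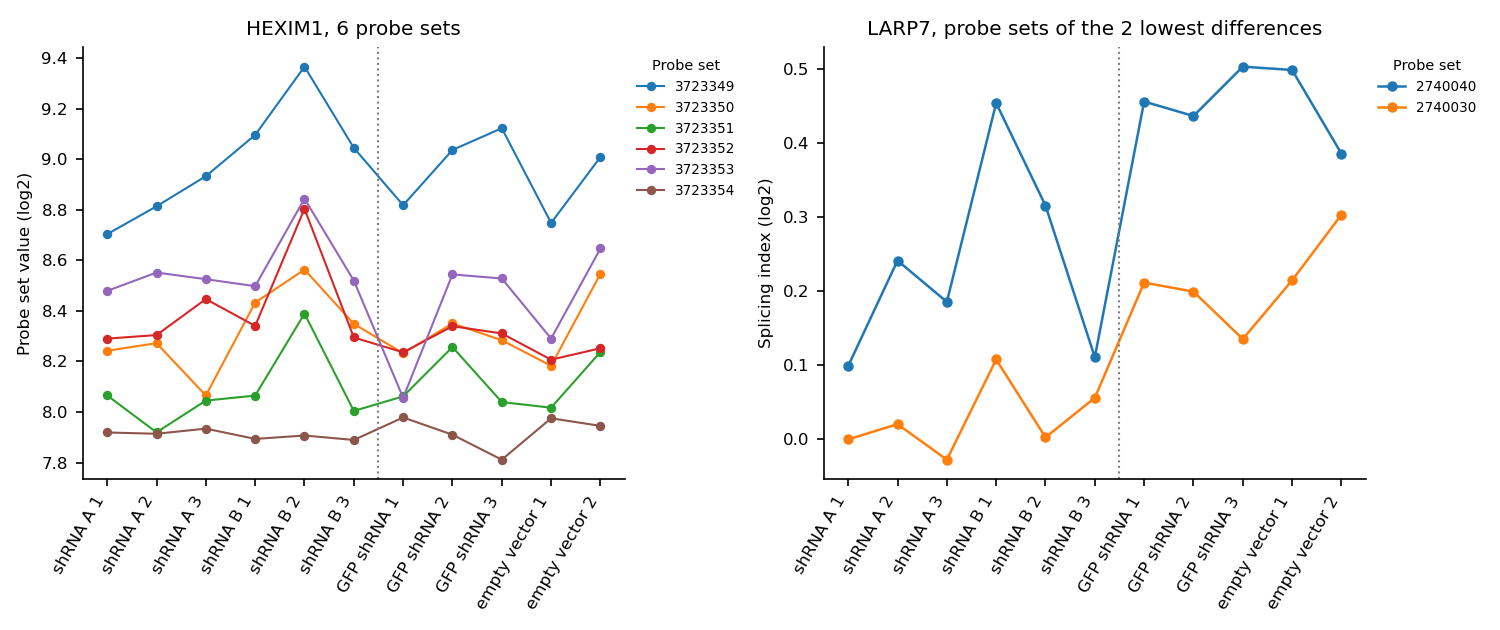
Left, log2 value (vertical axis) of the 6 HEXIM1 probe sets on each array (horizontal axis), in which shRNA B replicate 2 is the highest array in 5 of 6. Right, splicing index on the log2 scale of LARP7 probe sets 2740040 and 2740030 on each array, with the 6 knockdown arrays left of the dotted line and the 5 controls right of it, where 2740030 shows no overlap between the groups.

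Among the subunits of the kinase, CCNT2 had 5 of 25 probe sets with an unadjusted p under 0.05 by splicing index, and CDK9 and CCNT1 had 2 of 12 each, where the share over all probe sets was 11.8%. CCNT2 probe set 2507214 had the largest positive difference of its gene, 0.14 (SE 0.0420, limma adjusted p = 0.225), with levels of 8.30 ± 0.0488 in knockdown (SD, n = 6) and 8.22 ± 0.0912 in control arrays (SD, n = 5). The largest negative one, in probe set 2507257, was -0.11 (limma adjusted p = 0.507). The smallest adjusted p of the gene was 0.137 (limma), for a probe set picked here by that value, 2507228, whose splicing index differed by 0.14. In CCNT1, probe set 3453234 differed by -0.19 (SE 0.0530, limma adjusted p = 0.208). Its levels were 9.40, 9.38 and 9.50 with shRNA A and 9.49, 9.54 and 9.52 with shRNA B, against 9.70, 9.54 and 9.62 with the GFP shRNA and 9.65 and 9.66 with the empty vector. These levels did not overlap, although 1 array of each group rounds to 9.54, while the splicing index of the groups overlapped. The share of all probe sets without overlap by level was not counted. CCNT1 probe set 3453238 lay at the other end with 0.06 (limma adjusted p = 0.756). In CDK9, probe set 3190047 differed by -0.17 (SE 0.0690, limma adjusted p = 0.378) and 3190051 by 0.11 (limma adjusted p = 0.620). One probe set each of CDK9 and CCNT2 was far brighter than the rest of its gene. CDK9 probe set 3190040 had 12.74 ± 0.162 in knockdown (SD, n = 6) and 12.80 ± 0.0753 in control arrays (SD, n = 5), and CCNT2 probe set 2507211 had 12.85 ± 0.171 (SD, n = 6) and 12.90 ± 0.163 (SD, n = 5). As the gene value is a median, these probe sets had little weight in it.

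In the inhibitors, HEXIM1 probe set 3723351 had the largest negative difference of the splicing index, -0.13 (SE 0.0411, limma adjusted p = 0.246), and 3723353 the largest positive one, 0.07 (limma adjusted p = 0.733). HEXIM2 probe sets 3723367 and 3723365 differed by -0.07 and 0.05, with adjusted p-values of 0.724 and 0.674 (limma). In MEPCE, probe set 3015567 had the largest difference of all 99, 0.34, with a large error (SE 0.149, limma adjusted p = 0.401). Its levels were 8.73, 9.44 and 9.31 with shRNA A and 9.54, 9.20 and 9.33 with shRNA B, against 9.06, 9.29 and 9.03 with the GFP shRNA and 8.54 and 9.27 with the empty vector, and the groups overlapped widely. MEPCE probe set 3015563 differed by -0.15 (limma adjusted p = 0.588), and against the GFP shRNA alone by 0.01.

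The 7SK RNA itself, RN7SK, had 3 probe sets and so no gene value. They stand far apart in the array's numbering and RN7SK has many near-identical copies in the genome, so which copies they read is uncertain. Probe set 3432314 had 13.39, 13.38 and 13.33 with shRNA A and 12.77, 13.32 and 13.11 with shRNA B, against 13.46, 13.39 and 13.41 with the GFP shRNA and 13.35 and 13.41 with the empty vector. Probe set 3548102 had 13.59, 13.48 and 13.54 with shRNA A and 13.09, 13.41 and 13.26 with shRNA B, against 13.60, 13.42 and 13.55 with the GFP shRNA and 13.49 and 13.54 with the empty vector. In both, the shRNA A arrays lay at or near the controls. The 3 shRNA B arrays were the lowest of the 11, replicates 1 and 3 by more than replicate 2. All shRNA B arrays carry the array-name suffix, which no control array does. A difference of shRNA B alone was not tested for these probe sets. The mean of the 3000 brightest genes was 9.181 on shRNA B replicate 1, the lowest of the study, and 9.284 on shRNA B replicate 3, above shRNA A replicates 1 and 2 (9.251 and 9.234). Probe set 2910446 had 11.00, 10.85 and 10.65 with shRNA A and 10.65, 10.69 and 10.84 with shRNA B, against 10.93, 10.76 and 10.91 with the GFP shRNA and 11.00 and 10.89 with the empty vector. The pooled differences, which average both shRNAs, were -0.19, -0.13 and -0.12 for 3432314, 3548102 and 2910446. Their adjusted p-values were 0.588, 0.671 and 0.739 by level (limma). The part of array brightness in these differences was not tested.

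The genes around the complex gave no call either. In 7 lists of related genes, none of the 109 measured genes passed for knockdown against control, and most had a lower mean, beside 67.1% of all genes. The share of all genes at an unadjusted p under 0.05 was 15.2%. Of 21 measured partners of 7SK RNA, which include the proteins that hold it once P-TEFb has left, 16 had a lower and 5 a higher mean, and 2 had an unadjusted p under 0.05. Their median difference was -0.04, beside -0.02 for all genes. NCL (nucleolin, a nucleolar RNA-binding protein) differed by -0.31 (SE 0.0955, limma adjusted p = 0.147), PPP1CB (a phosphatase catalytic subunit) by -0.13 and TRIM28 (a corepressor) by -0.12. Of 20 measured recruiters and super elongation complex genes, 16 were lower and 4 higher with a median of -0.04, and 3 had an unadjusted p under 0.05, MLLT1 (-0.13), RTF1 (-0.11) and ELL (-0.07).

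Of the 10 genes for P-TEFb's substrates at the paused polymerase, 7 were lower and 3 higher with a median of -0.02. NELFB, a subunit of the negative elongation factor, had 9.18 ± 0.0961 in knockdown (SD, n = 6) and 9.42 ± 0.0799 in control arrays (SD, n = 5), with no overlap between the groups. Its difference of -0.24 (SE 0.0605) had an adjusted p of 0.0847 (limma). SUPT5H (-0.16), the large subunit of DSIF, and NELFE (-0.11) were the other 2 at an unadjusted p under 0.05. Of the 15 other transcription kinases and their cyclins, 11 were lower and 4 higher with a median of -0.05, and 4 had an unadjusted p under 0.05. CCNQ, the cyclin of CDK10, differed by -0.18 (SE 0.0451, limma adjusted p = 0.0795) with no overlap between the groups, CCNL2 by -0.15 and CDK11B by -0.09.

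Of the 13 chaperones and modifiers of P-TEFb, 11 were lower and 2 higher with a median of -0.07, and 5 had an unadjusted p under 0.05. HDAC3 (-0.19), CDC37 (-0.17), a cochaperone of kinases, and HDAC1 (-0.14) had the smallest p-values of the list, with adjusted p-values of 0.214 to 0.324 (limma). Of 13 measured partners of LARP7 in the processing of U6 RNA, 11 were lower and 2 higher with a median of -0.02, and 2 had an unadjusted p under 0.05. LSM4, of the ring that binds the end of U6, had 11.09 ± 0.122 in knockdown (SD, n = 6) and 11.33 ± 0.0688 in control arrays (SD, n = 5), without overlap, and differed by -0.25 (limma adjusted p = 0.130). SART3 differed by -0.16 and USB1 by 0.07. Of 17 measured immediate early genes, whose short-lived transcripts depend on fresh elongation, 13 were lower and 4 higher with a median of -0.07, and 5 had an unadjusted p under 0.05. BTG2 differed by -0.24 (SE 0.0585, limma adjusted p = 0.0795), IER3 by -0.07 and KLF4 by -0.05. With gene values taken as the mean of the probe sets, 134 genes of the whole set were called. Among them were BTG2, NELFB, NELFE, CDK11B and LSM4, with adjusted p-values between 0.0173 and 0.0491 (limma), and no member. In the alternative settings, the only related genes followed were those picked from each list by smallest p in these data. The other genes of the lists were not looked at there. These passes are therefore not read as a share of the lists or set against the members. CDK11B also passed with a higher floor on dim probe sets (0.0287), and CCNQ without the trend in eBayes (limma adjusted p = 0.0378).

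**Figure D5:**
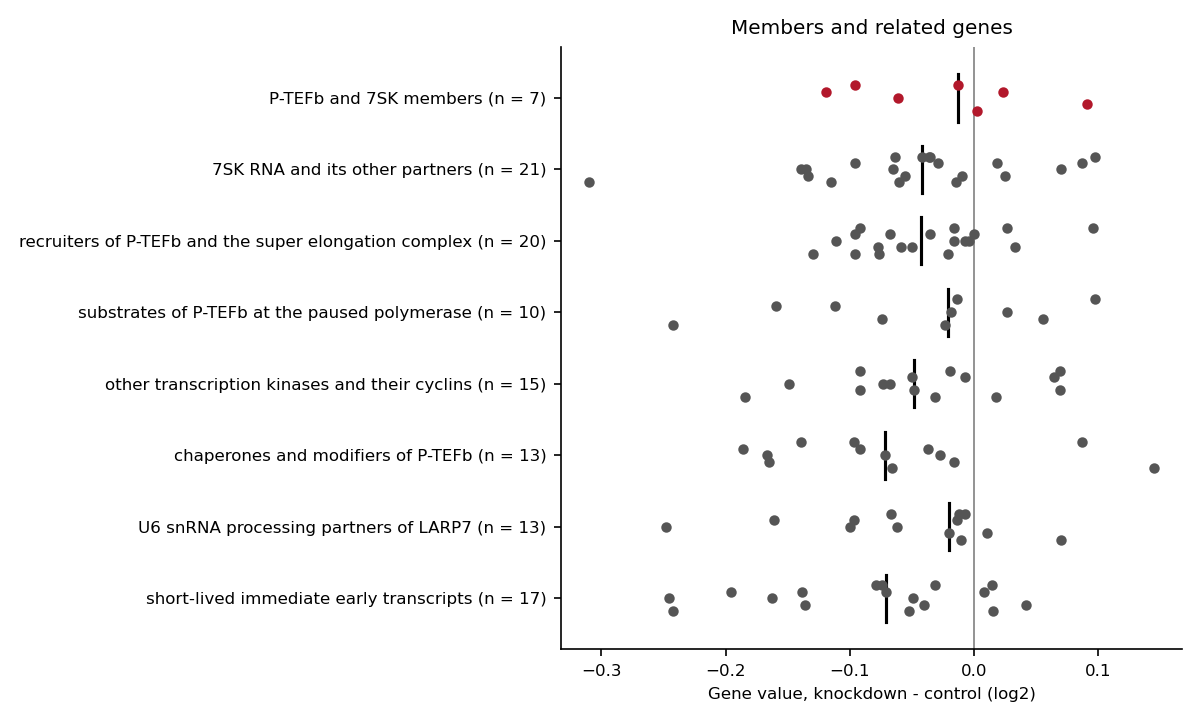
Difference of gene values between knockdown and control on the log2 scale (horizontal axis) for each measured gene of the 7 members (red) and of the 7 lists of related genes (grey), with a black bar at each list's median (vertical axis, with n measured genes). The medians lie between -0.07 and -0.01, beside -0.02 over all genes.

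The members did not share 1 pattern over the arrays. Among the 21 pairs of members, Pearson's r over the 11 arrays ran from -0.549 (HEXIM2 and LARP7) to 0.676 (LARP7 and MEPCE), with a median of 0.119. CDK9 had an r of 0.207 with CCNT1 and 0.474 with CCNT2, and -0.523 with HEXIM1. The genes of most similar pattern, the 2 with the highest r of the 14554 others, were NIPSNAP3B (0.957) and ALDH1B1 (0.933) for CDK9, TRAPPC6B (0.975) and RAB21 (0.955) for CCNT1, and BCAR3 (0.952) and CPSF1 (0.947) for CCNT2. For the inhibitors they were PIGW (0.925) and CTNS (0.881) for HEXIM1 and PROX2 (0.934) and ITGB8 (0.895) for HEXIM2. For the 7SK proteins they were ARV1 (0.886) and COPS2 (0.882) for LARP7 and RBM15 (0.924) and KDM2A (0.885) for MEPCE. These r values describe the same 11 arrays, which differ in brightness, and the r of a member with array brightness ran from -0.299 (HEXIM2) to 0.706 (CCNT2).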

How the data were processed

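The data are deposited log2 values for 1399022 probe sets of 11 Human Exon 1.0 ST arrays, 1 array per sample. How the submitters made them (software, normalization, genome build) is not given in the sources used here. Per the labels' protocols RNA was column purified, treated with DNase and labelled as sense targets. Of the probe sets, 355799 carried 1 gene symbol in the platform annotation, 15195 carried several and were not used, and 1028028 were not listed. Symbols were updated through RefSeq (GRCh38.p14), and coordinates of probe sets are left out since the array annotation names no build.

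Gene values, the splicing index and levels were compared with limma 3.58.1 (lmFit, and eBayes with a trend) in R 4.3.3, with Benjamini-Hochberg adjustment over all genes or probe sets. The pooled comparison used 2 levels, each shRNA and their difference 3 levels, and the control constructs 4 levels, always over the 11 arrays. Single genes were compared by exact two-sided permutation over 462 splits (smallest possible p 0.00216). The labels call the samples biological replicates, and the p-values set each difference against the spread between arrays. The pooled fit and the permutation put the arrays of both shRNAs together, and likewise those of both controls. Spread between constructs is therefore not modelled in them, and their p-values may be too small where constructs differ. The number of arrays limits the precision. The pooled limma test was also tried on simulated data, drawn as independent normal values with the means and within-construct spreads of these arrays. Apart from the planted changes, those data held no effect of brightness, array-name suffix or construct.

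The members, the lists of related genes and the tests were chosen with earlier results of these data known. Named were all members, per member the probe sets with the largest positive and largest negative splicing index difference, per list the 3 genes with the smallest p, and the 2 genes of most similar pattern. Deviations from group means of same-numbered arrays correlated between -0.148 and 0.269 over 15 pairs (median 0.041), of which 5 exceeded 0.1. For differently numbered arrays they ran from -0.269 to 0.217 over 30 pairs (median -0.022), of which 6 exceeded 0.1. The pairs share arrays, and the deviations of the 2 empty vector arrays are equal with opposite sign by construction. An array's r with 1 of them is thus its r with the other, sign reversed. For shRNA A replicate 2 these were 0.269 and -0.269, an extreme of each set. These values therefore do not settle whether the numbers pair arrays. The main fits did not pair them, and a replicate block was tried as an alternative. Sequences are RefSeq windows before annotated starts.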

Additional observations from a re-analysis of the deposited data

Results flagged for a closer look

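HEXIM1 on shRNA B replicate 2, with a gene value of 8.68, stood apart from the other 5 knockdown arrays, of which the next highest was 8.39. The gap was 0.694 of the group's range, above Dixon's 95% value of 0.625 for 6 samples. It was the only such array among the 14 groups tested (knockdown and control for each of 7 members), and chance flags about 1 in 20 groups. Without that array the pooled HEXIM1 difference was 0.03 in place of 0.09.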

How the results depend on the processing

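No member passed in any of the 5 comparisons under any alternative run (22 for the pooled comparison and for shRNA A, 21 for shRNA B, 20 for the shRNAs against each other and 20 for the control constructs). By splicing index the count of member probe sets was 0 in 19 alternatives and 2 with diffSplice. By level it was 0 in 17. The count over all genes moved between 0 and 134, beside 32: it was 134 with probe set means, 130 with a higher floor, 89 without the trend, 25 on a background-subtracted scale, 22 after quantile normalization, 19 without the floor, 2 with at least 2 probe sets per gene, 2 against the GFP shRNA alone, 0 with the suffix of the array names as a block or its arrays excluded (1279 and 1182 at an unadjusted p under 0.05), and between 2 and 47 with 1 array left out. The replicate block gave 10, no member called, MEPCE at -0.13 and HTATSF1 at -0.30 (adjusted p = 0.0607). The CCNT1 difference (0.023) turned to -0.025 with probe set means, -0.015 with the suffix as a block, -0.015 without the suffix arrays and -0.044 against the GFP shRNA alone, and ran between -0.00546 (without empty vector replicate 2) and 0.059 with 1 array left out. The HEXIM2 difference (0.0019) turned to -0.0019 with probe set means, -0.00365 on the background-subtracted scale and -0.016 against the GFP shRNA alone, and ran between -0.014 (without shRNA A replicate 2) and 0.016 with 1 array left out. Against the GFP shRNA alone the splicing index turned to 0.010 for HEXIM2 probe set 3723367 and to 0.012 for MEPCE probe set 3015563. With the background-subtracted scale the differences were larger, at -0.25 for CCNT2, -0.19 for CDK9, -0.25 for MEPCE, -0.09 for LARP7 and 0.28 for HEXIM1. With the suffix as a block they were -0.15 for CDK9, -0.18 for MEPCE and 0.001 for HEXIM1. No control array carries the suffix. With this block, the pooled difference is therefore that of shRNA A replicates 1 and 2 from the controls. It is the same difference as with the suffix arrays excluded, and no shRNA B array enters it. Beyond these settings' construction the cause was not tested. Signal close to the array median limits what HEXIM2 and LARP7 can show.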
